A study of Arabidopsis thaliana with 12 samples.

Results

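JAZ proteins are repressors of the response to jasmonate, a lipid-derived hormone of flowers and of wounded tissue. The 10 genes described here, JAZ1, JAZ2, JAZ3, JAZ5, JAZ6, JAZ7, JAZ8, JAZ9, JAZ10 and JAZ12, were matched by gene identifier among the 33610 genes of the count table, and all 10 were found. RNA was sequenced from unopened Arabidopsis thaliana buds of stages 1 to 12 in 12 libraries, in 4 groups of 3 biological replicates, each replicate pooling the buds of 8 plants. The groups were the bzip17 mutant held at 38 °C for 6 h, the bzip17 mutant kept at 22 °C, wild type (WT, Col-0) held at 38 °C for 6 h, and WT kept at 22 °C. The bzip17 mutant is a single T-DNA insertion line in the Col-0 background, so a change seen in it was not tested in another allele. It affects bZIP17, a transcription factor anchored in the membrane of the endoplasmic reticulum. The labels name no jasmonate treatment in any group.

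When active jasmonate is low, JAZ proteins bind transcription factors such as MYC2 and MYB21 and recruit, through the adaptor NINJA or directly, corepressors of the TOPLESS (TPL) family. Active jasmonate joins JAZ proteins to the F-box protein COI1, which leads to their ubiquitination and breakdown, and most JAZ genes are themselves switched on by the freed MYC factors. In flowers this pathway is known for its part in filament growth, pollen release and petal opening, for which MYB21 and its relatives are required. Transcript levels, the only quantity measured here, say nothing of JAZ protein stability.

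In the mutant, 2 of the 10 genes, JAZ7 and JAZ9, were lower by more than 2-fold at 38 °C than at 22 °C, and 3 others, JAZ2, JAZ3 and JAZ10, were lower by less. Of all tested genes, 6.44% passed the same test and fold limit on that side, and 13.9% passed the test at any fold. The call of JAZ7 was lost in 8 of 18 alternative fits and that of JAZ9 in 3. In WT no JAZ gene changed past the test, with JAZ2 and JAZ3 near its threshold. Past the test in WT, 13.7% of all tested genes were higher and 12.9% lower. The genotypes did not differ past the test in any JAZ gene at either temperature, and neither did their heat responses. Hardly any gene passed the test and fold limit between genotypes, 0.0145% of all tested genes at 38 °C and 0.00965% at 22 °C. For the difference of heat responses 0% passed. At 22 °C the 3 bzip17 libraries disagreed with each other over the whole family, and replicate 2 was the lowest of its group for all 10 genes. In each other group replicate 2 was also the lowest for 6 or 7 of the 10.

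The 5 genes with an adjusted p under 0.05 for heat in bzip17 are shown first by their promoters, since JAZ genes respond to factors that bind named motifs. Each sequence is the 250 bases before the gene start in RefSeq annotation of TAIR10.1, written 5′ to 3′ on the strand of the gene. Capitals mark CACGTG, the G-box bound by MYC2, and AACGTG, a related motif that MYC2 also binds (CACGTT on the other strand).
JAZ7 (chr2:14572780-14573029, plus strand): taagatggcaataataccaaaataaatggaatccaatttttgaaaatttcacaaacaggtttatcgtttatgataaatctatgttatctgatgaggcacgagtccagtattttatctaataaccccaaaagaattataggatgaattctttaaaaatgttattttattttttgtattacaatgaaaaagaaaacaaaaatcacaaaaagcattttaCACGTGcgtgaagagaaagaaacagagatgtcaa
JAZ9 (chr1:26654279-26654528, plus strand): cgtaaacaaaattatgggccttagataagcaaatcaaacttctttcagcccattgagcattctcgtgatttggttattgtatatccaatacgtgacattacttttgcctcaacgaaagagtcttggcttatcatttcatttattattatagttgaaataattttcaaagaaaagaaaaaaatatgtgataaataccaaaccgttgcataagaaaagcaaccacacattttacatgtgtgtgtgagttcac
JAZ3 (chr3:6119457-6119706, plus strand): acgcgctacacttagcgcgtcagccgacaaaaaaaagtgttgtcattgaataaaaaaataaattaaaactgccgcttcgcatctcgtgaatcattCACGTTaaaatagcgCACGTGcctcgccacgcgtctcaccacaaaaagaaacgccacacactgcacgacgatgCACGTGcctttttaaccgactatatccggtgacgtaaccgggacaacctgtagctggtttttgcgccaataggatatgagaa
JAZ2 (chr1:28150447-28150696, minus strand): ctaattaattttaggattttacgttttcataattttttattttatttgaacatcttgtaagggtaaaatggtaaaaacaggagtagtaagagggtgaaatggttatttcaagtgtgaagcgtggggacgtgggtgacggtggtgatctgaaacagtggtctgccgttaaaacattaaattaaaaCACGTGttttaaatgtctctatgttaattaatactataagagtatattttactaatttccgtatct
JAZ10 (chr5:4218536-4218785, plus strand): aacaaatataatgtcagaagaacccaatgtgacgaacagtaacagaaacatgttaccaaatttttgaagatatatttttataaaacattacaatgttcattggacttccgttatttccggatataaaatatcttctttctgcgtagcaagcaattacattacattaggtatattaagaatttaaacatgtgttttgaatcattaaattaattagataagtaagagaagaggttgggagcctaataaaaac

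On both strands of these windows, CACGTG was found in 4 of the 10 JAZ promoters (JAZ2, JAZ3, JAZ7 and JAZ8), against 6.49% of 27443 promoters of the same length. AACGTG was found in 4 of the 10 (JAZ3, JAZ5, JAZ6 and JAZ12), against 7.54% of all. GAANNTTC, the core pair of a heat shock element, was in 0 of the 10 and in 9.55% of all. No copies of these motifs overlapped each other in the JAZ promoters. The G-box began 34 bases before the start of JAZ7, 66 bases before JAZ2, and 140 and 82 bases before JAZ3. JAZ9, JAZ10 and JAZ1 held none of the 3 motifs in this window. A match is a description of letters, and a lack of one says nothing of more distant sequence.

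Totals ran between 38.6 and 71.8 M counts per library (M, 1e6). Ribosomal RNA took between 1.43 and 64.8% of them and was over 10% in 4 libraries, replicates 2 and 3 of WT at 22 °C, replicate 1 of WT at 38 °C and replicate 1 of bzip17 at 22 °C. After a filter on low expression 20715 genes were tested, including all 10 JAZ genes, of which 8 reached the limit in all 12 libraries, JAZ7 in 11 and JAZ8 in 10. BZIP17 itself stood at 8.22 to 10.3 counts per M (CPM) in bzip17 and 45.2 to 51.1 CPM in WT at 38 °C, and at 3.50 to 5.74 CPM in bzip17 and 31.7 to 45.1 CPM in WT at 22 °C, so each library matched its genotype label. All 4 floral organ identity genes and 5 of 6 tapetum genes were expressed, and 3 seed storage genes summed to under 1 CPM in every library.

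The 10 genes were expressed at very different levels. Ordered by FPKM, which corrects for transcript length, JAZ12 ranked first in 10 of 12 libraries and JAZ9 in the other 2, replicate 3 of bzip17 and replicate 3 of WT, both at 22 °C. JAZ2 held rank 4 in all 12. JAZ12, JAZ9 and JAZ6 together made up 65.5 to 73.3% of the summed FPKM of the 10 genes in a library. JAZ5, JAZ1, JAZ10 and JAZ3 followed, with mean shares of 5.21, 5.02, 3.80 and 2.57%. JAZ7 and JAZ8 were the 2 lowest genes in every library, with mean shares of 0.803 and 0.607%. Not every neighbour in this order was separated: JAZ9 was above JAZ6 in 9 of 12 libraries, JAZ5 above JAZ1 in 7, and JAZ7 above JAZ8 in 8. JAZ6 was above JAZ2, JAZ2 above JAZ5 and JAZ3 above JAZ7 in all 12.

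**Figure D1:**
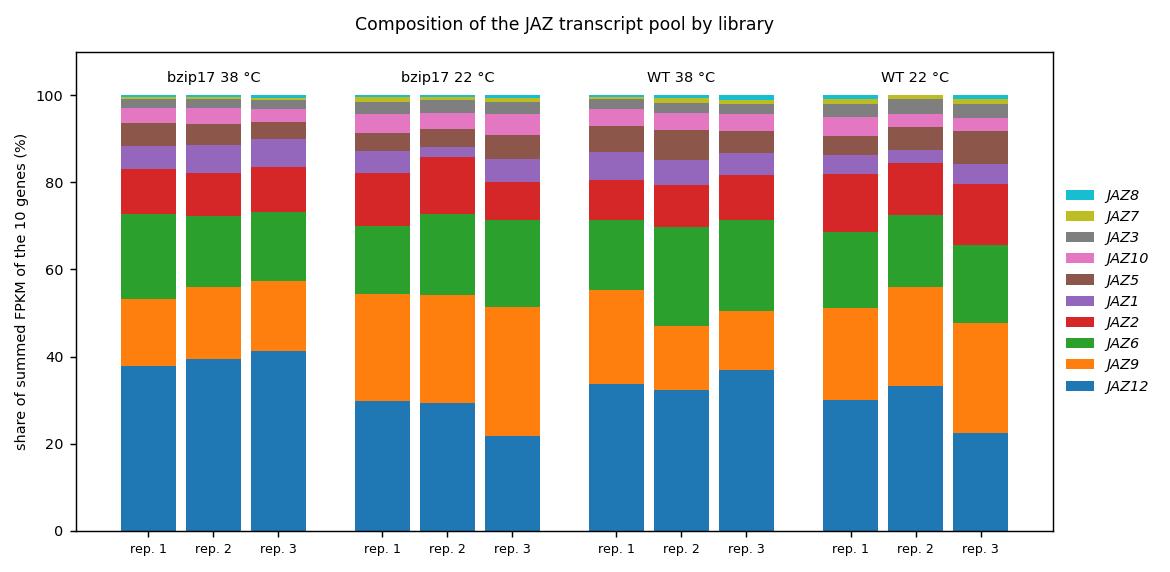
Share of each JAZ gene in the summed FPKM of the 10 genes (y axis, %), with 1 bar per library, grouped by genotype and temperature (x axis). JAZ12, JAZ9 and JAZ6 fill 65.5 to 73.3% of every bar, and JAZ12 took more and JAZ9 less in the 3 bzip17 libraries at 38 °C than in those at 22 °C.

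The make-up of this pool differed between temperatures in bzip17. JAZ12 made up 37.9, 39.5 and 41.3% of summed JAZ FPKM in bzip17 at 38 °C, against 29.7, 29.4 and 21.9% in bzip17 at 22 °C. JAZ9 made up 15.3, 16.5 and 16.0% at 38 °C, against 24.7, 24.7 and 29.5% at 22 °C. For both genes the 2 sets of bzip17 libraries did not overlap. In WT the JAZ12 shares were 33.8, 32.3 and 36.9% at 38 °C and 30.0, 33.3 and 22.5% at 22 °C, and those of JAZ9 were 21.5, 14.6 and 13.5% at 38 °C and 21.1, 22.6 and 25.3% at 22 °C, which overlapped for both genes. Shares carry no test here, and a share can move because another gene does.

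Heat in the mutant was compared first, as 38 °C against 22 °C within bzip17. A gene was called when edgeR's quasi-likelihood test gave a Benjamini-Hochberg adjusted p under 0.05 over all genes and the change was more than 2-fold. By this rule 2 of 10 JAZ genes were called lower and 0 higher, where 6.44% of all tested genes were called lower and 6.08% higher (12.5% in either direction). With the fold limit left aside, 5 of the 10 were lower at an adjusted p under 0.05, where 13.9% of all genes were, and none was higher, where 13.0% were. That count of 5 was 1 (JAZ9) without the 4 libraries rich in ribosomal RNA, 3 with the replicate number as a block among the bzip17 libraries, and 0 with counts scaled to library totals or with limma on log2(FPKM + 1). It was 6 without replicate 2 of bzip17 at 22 °C, 3 without replicate 3 of that group, and 2 without its replicate 1 or without any 1 heated library. The log2 change was above 0 for 2 of the 10 and for 46.7% of all genes, and the median of the 10 was -0.49, beside -0.05 over all genes.

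JAZ9 (AT1G70700, chromosome 1, 26654768 to 26657064) and JAZ3 (AT3G17860, chromosome 3, 6119767 to 6123019) form, with JAZ4, one branch of the family. JAZ9 had 51.8, 48.0 and 55.0 CPM in bzip17 at 38 °C, against 117, 73.3 and 151 CPM in bzip17 at 22 °C (replicates 1, 2 and 3). All 3 heated libraries lay close together and below all 3 at 22 °C, which were spread over a 2.06-fold range. The log2 change was -1.14 (SE 0.25, adjusted p = 0.00659). When replicate 3 of bzip17 at 22 °C, the highest of the 12 libraries, was left out, it was -0.88 (adjusted p = 0.0232), under the fold limit.

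JAZ3 had 10.2, 8.63 and 9.79 CPM in bzip17 at 38 °C, against 18.3, 12.5 and 19.6 CPM in bzip17 at 22 °C. The groups did not overlap, and the log2 change was -0.82 (SE 0.18, adjusted p = 0.00645), under the fold limit. Its adjusted p was 0.0813 without the 4 libraries rich in ribosomal RNA and 0.435 with library totals, and stayed under 0.05 in the 6 fits that left out 1 bzip17 library. The dominant jai3-1 allele of this gene, which lacks the end of the protein that COI1 recognizes, makes plants insensitive to jasmonate. JAZ4 stayed under the expression limit and was not tested.

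JAZ7 (AT2G34600, chromosome 2, 14573080 to 14573856) and JAZ8 (AT1G30135, chromosome 1, 10596492 to 10597239) belong to a branch whose best-known member, JAZ8, lacks the usual degron and resists breakdown by jasmonate. JAZ7 had 0.581, 0.774 and 0.740 CPM in bzip17 at 38 °C (48, 50 and 39 counts), against 2.99, 1.10 and 2.66 CPM in bzip17 at 22 °C (111, 53 and 184 counts). The heated libraries were lower without overlap, although replicate 2 at 22 °C was nearer to them than to the other 2 of its group. The log2 change was -1.69 (SE 0.46, adjusted p = 0.0184), the largest fall of the 10 genes. With the replicate number as a block among the 6 bzip17 libraries, where same-numbered libraries deviated together, it was -1.60 (adjusted p = 0.0950). Leaving out replicate 1 of bzip17 at 22 °C gave -1.43 (adjusted p = 0.0651), and leaving out heated replicate 1, 2 or 3 gave -1.57, -1.77 or -1.73 (adjusted p = 0.0674, 0.0531 and 0.0515). Without the 4 libraries rich in ribosomal RNA it was -1.42 (adjusted p = 0.103). Scaled to library totals, JAZ7 gave -1.53 (adjusted p = 0.244) and JAZ9 -1.02 (adjusted p = 0.146), so neither was called.

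JAZ8 stood at 0.681 to 1.16 CPM in bzip17 at 38 °C and 0.622 to 1.50 CPM at 22 °C, a log2 change of -0.29 (SE 0.99, adjusted p = 0.860). Its SE was the widest of the 10 in every comparison. In replicate 2 of WT at 22 °C it had 0 counts, which allows up to 0.0710 CPM (3 counts in that library, counting error only), while the other 2 libraries of the group had 1.42 and 1.50 CPM. JAZ8 was 1 of 5 tested genes at 0 in that library with 20 or more counts in each of the others.

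JAZ1, JAZ2, JAZ5 and JAZ6 form the branch that includes the first JAZ proteins shown to be targets of COI1. JAZ2 (AT1G74950, chromosome 1, 28148575 to 28150444), known for a role in guard cells, had 35.4, 29.0 and 35.9 CPM in bzip17 at 38 °C, against 58.9, 39.1 and 46.1 CPM in bzip17 at 22 °C. These groups did not overlap, and the log2 change was -0.52 (SE 0.18, adjusted p = 0.0466), under the fold limit. The adjusted p of JAZ2 was above 0.05 in 5 of the 6 fits that left out 1 bzip17 library, all but the one without replicate 2 at 22 °C, and it ranged over 0.0200 to 0.713 across the alternatives. JAZ1 (AT1G19180, chromosome 1, 6622094 to 6623620) had 22.3, 23.3 and 27.3 CPM at 38 °C, against 28.3, 9.14 and 33.3 CPM at 22 °C. Replicate 2 at 22 °C was 3.64-fold below replicate 3 of the same group, so the heated libraries fell inside the range of the others, and the log2 difference was 0.04 (SE 0.36, adjusted p = 0.947). JAZ5 (AT1G17380, chromosome 1, 5955488 to 5957212) and JAZ6 (AT1G72450, chromosome 1, 27274065 to 27276317), a closely related pair whose proteins carry an EAR motif that binds TPL, gave -0.40 (SE 0.29, adjusted p = 0.333) and -0.46 (SE 0.21, adjusted p = 0.132).

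JAZ10 (AT5G13220, chromosome 5, 4218888 to 4220883) stands apart in the family, and its transcript is spliced into forms that differ in sensitivity to jasmonate, which gene counts do not separate. It had 15.2, 12.9 and 13.4 CPM in bzip17 at 38 °C, against 26.3, 13.8 and 31.8 CPM in bzip17 at 22 °C. The groups overlapped only through replicate 2 at 22 °C. The log2 change was -0.79 (SE 0.26, adjusted p = 0.0427), and without that replicate it was -1.07 (adjusted p = 0.00303), past the fold limit. With the replicate block among the bzip17 libraries it was -0.73 (adjusted p = 0.0985), so that 3 of the 10 genes, JAZ2, JAZ3 and JAZ9, were then under 0.05. The adjusted p of JAZ10 was above 0.05 in the 5 other fits that left out 1 bzip17 library, and it ranged over 0.00303 to 0.537 across the alternatives. JAZ12 (AT5G20900, chromosome 5, 7090704 to 7092539) had 111 ± 11.4 CPM at 38 °C, against 98.0 ± 22.9 CPM at 22 °C (SD, n = 3), a log2 difference of 0.18 (SE 0.19, adjusted p = 0.526). It overlaps a gene on the opposite strand by 28 bases, and no strand protocol is stated, so a small part of its count is uncertain. The other 9 JAZ genes overlap no gene in the table.

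**Figure D2:**
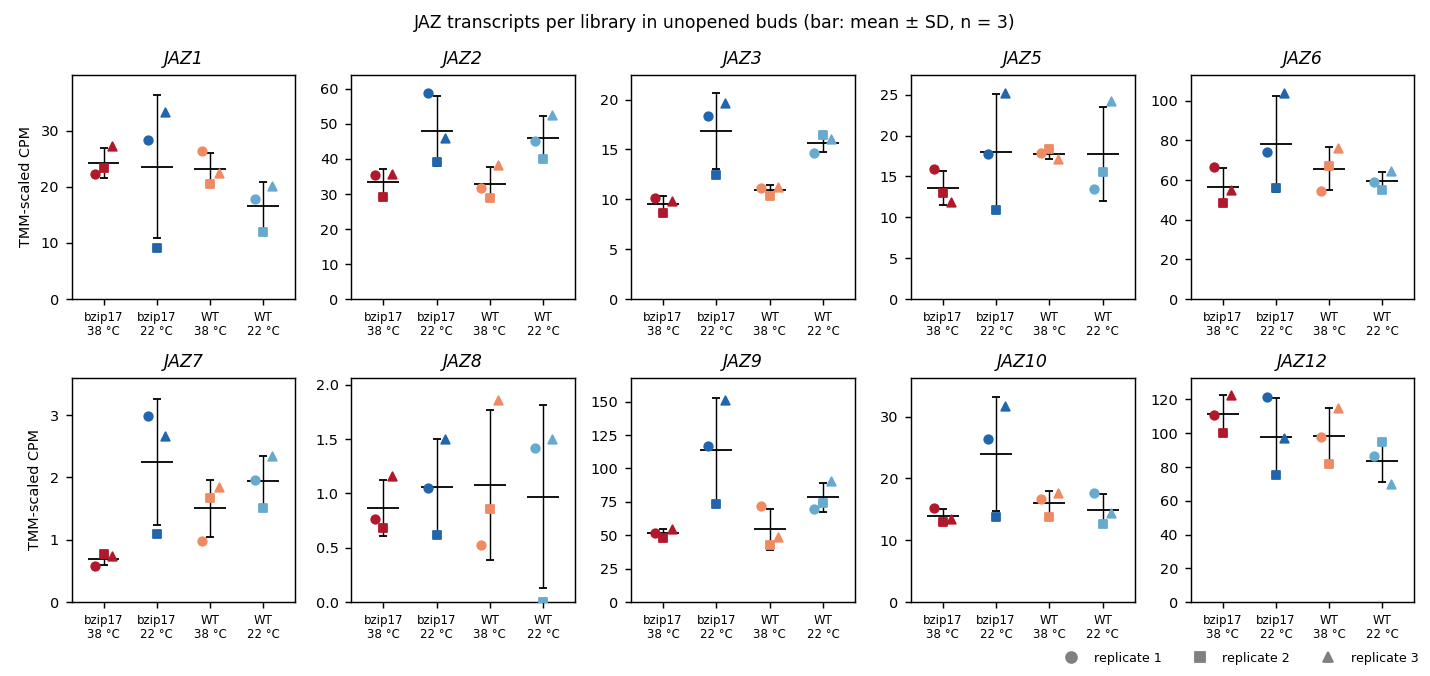
Level of each JAZ gene (y axis, TMM-scaled CPM, each panel with its own scale from 0) in the 12 libraries, by genotype and temperature (x axis). Points are libraries, with the replicate shown by the marker, and bars are the mean ± SD (n = 3). Replicate 2 of bzip17 at 22 °C, the blue square, is the lowest of its group in all 10 panels, and the 3 bzip17 libraries at 38 °C lie below the other bzip17 libraries for JAZ2, JAZ3, JAZ7 and JAZ9.

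Counted by overlap alone, 4 of 10 JAZ genes were lower in every bzip17 library at 38 °C than in any at 22 °C (JAZ2, JAZ3, JAZ7 and JAZ9), where 21.0% of all tested genes were. None was higher without overlap, where 22.1% of all genes were.

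The same heat comparison was made in WT. Of the 10 genes 0 were called by edgeR's quasi-likelihood test, and 12.8% of all tested genes were (6.40% higher and 6.43% lower). At an adjusted p under 0.05 and any fold there were also 0, where 13.7% of all genes were higher and 12.9% lower. JAZ2 and JAZ3 lay near that threshold. With the replicate number as a block over all 12 libraries both passed it, at an adjusted p of 0.0300 for JAZ2 and 0.0485 for JAZ3. JAZ3 also passed with DESeq2 (adjusted p = 0.0449), in a fit of only the 2 WT groups (adjusted p = 0.0482) and without the ribosomal RNA loci (adjusted p = 0.0499). At an unadjusted p under 0.05 there were 2, JAZ2 and JAZ3, where 39.7% of all genes passed, and DESeq2 called 0 past the fold limit. The median log2 change was 0.05, beside 0.02 over all genes, with 6 of the 10 above 0, where 51.1% of all genes were.

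JAZ3 had 11.1, 10.3 and 11.2 CPM in WT at 38 °C, against 14.6, 16.4 and 16.0 CPM in WT at 22 °C. The heated libraries were lower without overlap, with a log2 difference of -0.52 (SE 0.18, adjusted p = 0.0507). JAZ2 had 31.7, 28.9 and 38.3 CPM in WT at 38 °C, against 45.1, 40.0 and 52.5 CPM in WT at 22 °C. It too was lower without overlap, with -0.48 (SE 0.18, adjusted p = 0.0669). These 2 of 10 genes without overlap compare with 21.9% of all genes on that side. Without the 4 libraries rich in ribosomal RNA, which left 1 WT library at 22 °C, JAZ3 gave -0.44 and JAZ2 -0.42. Scaling to library totals instead of TMM moved the median of all genes to 0.41, and JAZ2 was then at -0.03 and JAZ3 at -0.12.

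JAZ9 had 72.1, 42.7 and 48.6 CPM in WT at 38 °C, against 70.0, 74.3 and 91.0 CPM in WT at 22 °C. Replicate 1 at 38 °C lay within the range at 22 °C, and the log2 difference was -0.53 (SE 0.25, adjusted p = 0.141). JAZ7 had 0.987, 1.68 and 1.85 CPM in WT at 38 °C and 1.95, 1.52 and 2.34 CPM in WT at 22 °C, which overlapped (log2 change -0.35, SE 0.45, adjusted p = 0.595). JAZ1 was the only gene that was higher in WT without overlap, where 22.8% of all genes were. It had 26.3, 20.6 and 22.4 CPM in WT at 38 °C and 17.8, 12.0 and 20.2 CPM in WT at 22 °C, a log2 difference of 0.48 (SE 0.37, adjusted p = 0.362). JAZ5, JAZ6, JAZ8, JAZ10 and JAZ12 overlapped between temperatures, with log2 differences of 0.01, 0.15, 0.18, 0.10 and 0.23.

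Between genotypes at 38 °C, bzip17 against WT, 0 of 10 JAZ genes were called, where 0.0145% of all tested genes were (3 genes, 0.00483% higher and 0.00965% lower). At an unadjusted p under 0.05 there was 1, where 4.43% of all genes passed, and DESeq2 called 0 of the 10. That gene was JAZ7, at 0.581, 0.774 and 0.740 CPM in bzip17 and 0.987, 1.68 and 1.85 CPM in WT. All 3 bzip17 libraries were lower, with a log2 difference of -1.11 (SE 0.46), but the adjusted p was 1.00 in the edgeR fit (unadjusted 0.0317). JAZ3 and JAZ5 were also lower without overlap, so that 3 of 10 were, where 6.99% of all genes were, and none was higher without overlap, where 4.80% of all genes were. JAZ3 stood at 10.2, 8.63 and 9.79 CPM in bzip17 and 11.1, 10.3 and 11.2 CPM in WT (log2 change -0.19, SE 0.18, adjusted p = 1.00). JAZ5 stood at 15.9, 12.9 and 11.9 CPM in bzip17 and 17.9, 18.4 and 17.1 CPM in WT (log2 change -0.39, SE 0.29, adjusted p = 1.00). JAZ9, with 51.6 ± 3.47 CPM in bzip17 and 54.4 ± 15.6 CPM in WT (SD, n = 3 each), differed by -0.08 (SE 0.25). The log2 difference was above 0 for 3 of the 10 and for 49.5% of all genes, and the median was -0.20, beside -0.0024 over all genes.

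At 22 °C, bzip17 against WT, 0 of 10 were called, where 0.00965% of all tested genes were (2 genes). All 10 log2 differences lay above 0, between 0.02 and 0.68, where 53.1% of all genes lay above 0, and the median of 0.22 compares with 0.02 over all genes. With the 4 libraries rich in ribosomal RNA left out, which left 1 WT library at 22 °C, 6 of 10 lay above 0. Leaving out 1 library gave 7 of 10 without replicate 2 of WT or replicate 3 of bzip17, 8 without replicate 1 of bzip17 and 9 without replicate 1 of WT, so the direction was not shared by all fits. JAZ10 gave the largest difference, with 26.3, 13.8 and 31.8 CPM in bzip17 and 17.7, 12.7 and 14.4 CPM in WT. Replicates 1 and 3 of bzip17 were above all WT libraries and replicate 2 was among them, so the groups overlapped (log2 change 0.68, SE 0.26, adjusted p = 0.472). JAZ9 gave 0.54 (SE 0.25, adjusted p = 0.518) and JAZ1 0.51 (SE 0.37, adjusted p = 0.671), also with overlap. No JAZ gene separated the genotypes at 22 °C, where 5.53% of all genes were higher and 6.47% lower without overlap. At an unadjusted p under 0.05 there was 1 gene, JAZ10, where 9.79% of all genes passed, and DESeq2 called 0 of the 10.

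**Figure D3:**
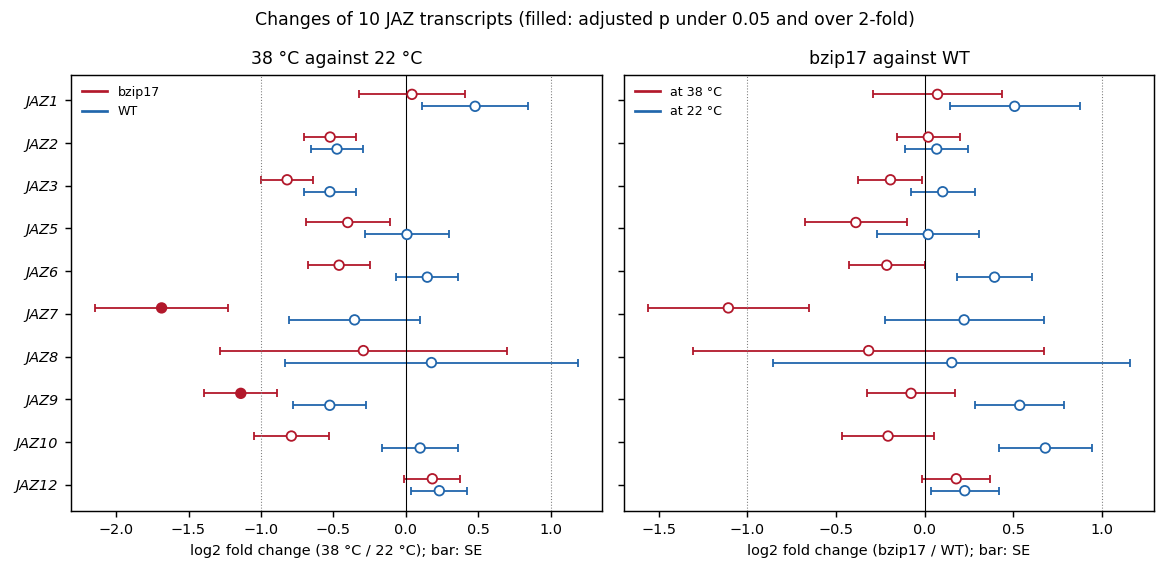
Log2 fold changes of the 10 JAZ genes (x axis) with their SE, left for 38 °C against 22 °C in bzip17 (red) and in WT (blue), right for bzip17 against WT at 38 °C (red) and at 22 °C (blue). Filled points, JAZ7 and JAZ9 for heat in bzip17, pass an adjusted p of 0.05 and the 2-fold limit (dotted lines). In the left panel the red point has a lower log2 change than the blue one for all 10 genes.

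The difference of the 2 heat responses, bzip17 minus WT, was tested as an interaction term. It was called for 0 of the 10 genes and for 0% of all tested genes, with 895 genes (4.32%) at an unadjusted p under 0.05 and 6 genes called by DESeq2. All 10 values were below 0, with a median of -0.45 beside -0.05 over all genes, where 43.3% of all genes lay above 0. Fewer lay below 0 in some of the fits that left out libraries, given next, and all 10 did in the other fits that left out a single library. Among WT libraries, dropping heated replicate 3 gave 7 of 10, dropping replicate 2 from the 22 °C group gave 8 and dropping its replicate 3 gave 9. Among bzip17 libraries, dropping heated replicate 2 or the first replicate at 22 °C gave 8 each, as did dropping the 4 libraries rich in ribosomal RNA. The genes that turned were JAZ2, JAZ8 and JAZ12. The largest was that of JAZ7, -1.33 (SE 0.64), and JAZ10 followed with -0.89 (SE 0.37, unadjusted p = 0.0332), both with an adjusted p of 1.00 in the edgeR fit. A call for JAZ7 and JAZ9 in bzip17 and none in WT therefore did not amount to a tested difference between the genotypes.

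The bzip17 libraries at 22 °C were spread widely for these genes. Replicate 2 was the lowest of the 3 libraries for 10 of 10 JAZ genes, where 30.3% of all tested genes were lowest there, and replicate 3 was the highest for 7. The same order held in part elsewhere. Replicate 2 was lowest for 7 of 10 in bzip17 at 38 °C (34.7% of all genes). In WT it was lowest for 6 at 38 °C (36.3%) and 6 at 22 °C (25.7%). Replicate 3 was highest for 5 in bzip17 at 38 °C and for 7 in each WT group. The median ratio of the highest to the lowest library was 2.18 over the JAZ genes and 1.51 over all genes in that group. In bzip17 at 38 °C the same 2 medians were 1.23 and 1.29, in WT at 38 °C 1.36 and 1.41, and in WT at 22 °C both were 1.37. Summed over the 10 genes, the level was 329.8, 285 and 333 CPM in bzip17 at 38 °C and 466, 292 and 513 CPM in bzip17 at 22 °C. In WT it was 329.8, 286 and 349.9 CPM at 38 °C, against 327, 322 and 357 CPM at 22 °C. Replicates 1 and 3 of bzip17 at 22 °C were above all other libraries, which lay between 285 and 357 CPM.

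Floral organ and tapetum markers were also low in replicate 2 of bzip17 at 22 °C, and late pollen markers were mixed there. The 4 floral organ identity genes and the 5 tested tapetum genes were all lowest in replicate 2 among the bzip17 libraries at 22 °C. All of them were also lowest in replicate 2 of WT at 38 °C. In bzip17 at 38 °C, 4 of 4 floral and 4 of 5 tapetum genes were lowest in replicate 2. In WT at 22 °C, 1 of 4 floral and 4 of 5 tapetum genes were. The summed tapetum level (6 genes, with DYT1 at or near 0) was 354, 246 and 359.7 CPM in bzip17 at 38 °C and 499, 119.8 and 386 CPM in bzip17 at 22 °C. It was 233, 156 and 387 CPM in WT at 38 °C and 266, 163 and 227 CPM in WT at 22 °C. The summed level of the floral identity genes was 625, 529 and 685 CPM in bzip17 at 38 °C, 559, 195 and 561 CPM in bzip17 at 22 °C, 530.2, 311 and 604 CPM in WT at 38 °C and 399.9, 289.9 and 245 CPM in WT at 22 °C. The 4 late pollen genes summed to 577, 722 and 609 CPM in bzip17 and 1445, 1590.1 and 1273 CPM in WT at 22 °C, without overlap. Replicate 2 had the highest sum of its bzip17 group. Gene by gene, it was the highest for 1 of the 4 and the lowest for 1, while replicate 3 was the highest for 3. At 38 °C they summed to 344, 898 and 1120.5 CPM in bzip17 and 1082, 521 and 380.1 CPM in WT, which overlapped. One of them, AGP11, had 0 CPM in replicate 3 of bzip17 at 22 °C. The 3 green tissue genes, CAB1 among them, summed to 7732, 5537 and 7116 CPM in bzip17 at 38 °C, against 12942, 9993 and 10311 CPM in bzip17 at 22 °C, lower without overlap as JAZ2, JAZ3, JAZ7 and JAZ9 were. The sum follows its most abundant members, RBCS1A and CAB1, while LHCB2.1 was higher without overlap at 38 °C in both genotypes. In WT the 3 genes summed to 5186, 5611 and 6868 CPM at 38 °C, against 7079, 6727 and 8036 CPM at 22 °C. Whether the make-up of the pooled buds set the JAZ levels was not tested. In whole buds, fewer cells of a type and less RNA per cell cannot be told apart.

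**Figure D4:**
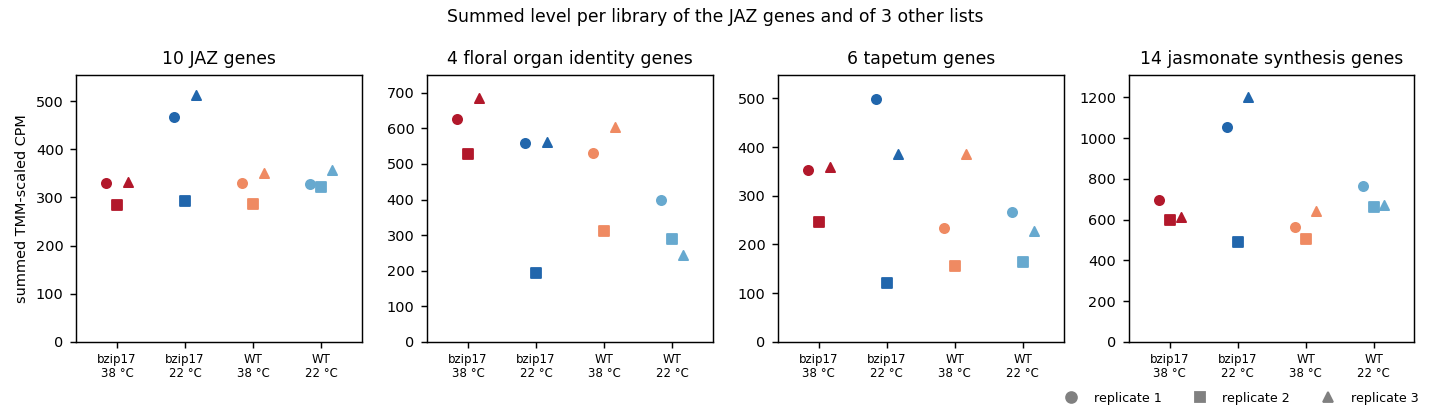
Summed TMM-scaled CPM (y axis, from 0) of the 10 JAZ genes, 4 floral organ identity genes, 6 tapetum genes and 14 jasmonate synthesis genes in the 12 libraries by genotype and temperature (x axis), with the replicate shown by the marker. Replicate 2 of bzip17 at 22 °C, the blue square, is below replicates 1 and 3 in all 4 panels. Lists not drawn were mixed in that group. Replicate 2 had the highest sum of the corepressors (738, 782 and 690 CPM in replicates 1 to 3), other TIFY genes (129, 139 and 124 CPM) and late pollen genes. It had the lowest sum of the jasmonate turnover and transport, jasmonate output and green tissue genes.

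Around the repressors, the genes that read and carry the hormone signal gave a single call past the fold limit, with smaller changes within it. COI1, the receptor that binds JAZ proteins, had 31.5 to 33.6 CPM in bzip17 at 38 °C and 29.1 to 36.5 CPM at 22 °C (log2 change 0.02, SE 0.15, adjusted p = 0.949). Of the 5 genes of the receptor and its ubiquitin ligase, 0 were called in any comparison. Heat called 12.5% of all tested genes in bzip17 and 12.8% in WT. Of the 8 corepressor genes 1 was called, TPL, in the heat comparison in bzip17, a count near that share. Its level was 44.5, 60.4 and 40.9 CPM in bzip17 at 38 °C and 172, 199 and 120.4 CPM at 22 °C (log2 change -1.75, SE 0.50, adjusted p = 0.0232), and 169, 72.4 and 35.0 CPM in WT at 38 °C and 72.9, 193 and 190.1 CPM at 22 °C, with overlap (log2 change -0.72, SE 0.49, adjusted p = 0.303). NINJA gave -0.18 (SE 0.28, adjusted p = 0.684) in bzip17 and 0.24 (SE 0.29, adjusted p = 0.559) in WT. With the fold limit left aside, the smallest adjusted p of the 8 in the edgeR fit was 0.000858 for heat in bzip17 and 0.00118 in WT. Lower without overlap were 3 of 8 in bzip17 and 2 in WT, where 21.0% and 21.9% of all genes were. HD1 was among them in both, at a mean of 104 against 172 CPM in bzip17 and 102 against 167 CPM in WT.

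Of the 15 tested transcription factor genes whose products JAZ proteins bind, 0 were called in any comparison. Heat called 12.5% of all tested genes in bzip17 and 12.8% in WT. With the fold limit left aside, the smallest adjusted p of the 15 in the edgeR fit was 0.00741 for heat in bzip17 and 0.00464 in WT. In WT 4 of the 15 were lower and 2 higher without overlap, where 21.9% and 22.8% of all genes were. In bzip17 4 were lower and 0 higher, where 21.0% and 22.1% of all genes were. MYC3 was among those lower in WT, at a mean of 16.8 against 32.3 CPM. In bzip17 its means were 15.2 CPM at 38 °C and 27.7 CPM at 22 °C, with overlap. MYC2, the main activator of jasmonate responses, stood at 39.9, 34.6 and 33.5 CPM in bzip17 at 38 °C and 37.5, 41.7 and 45.0 CPM at 22 °C, and at 44.4, 46.3 and 43.6 CPM in WT at 38 °C and 34.8, 39.4 and 111 CPM at 22 °C. Replicate 3 of WT at 22 °C, the library with 64.8% ribosomal RNA, was the only one above 50 CPM. MYB21, required for stamen growth, ranged over 12.8 to 33.3 CPM in bzip17 at 38 °C and 11.5 to 70.7 CPM at 22 °C, and its lowest value was again in replicate 2 at 22 °C. None of the 5 other tested genes with a TIFY domain was called in any comparison, and AT3G22275, annotated as a jasmonate ZIM-domain protein, gave -0.91 (SE 0.48, adjusted p = 0.182) for heat in bzip17. With the fold limit left aside, their smallest adjusted p in the edgeR fit was 0.00490 for heat in bzip17 and 0.0101 in WT. Lower without overlap were 2 of 5 in bzip17 and 3 in WT, where 21.0% and 21.9% of all genes were. JAZ11 and TIFY8 were among them in both genotypes. Higher without overlap were 1 in bzip17 and 0 in WT.

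Among 13 tested genes of jasmonate synthesis, heat in bzip17 called 2 lower and 0 higher, where 6.44% of all tested genes were called lower and 6.08% higher. Heat in WT called 1 lower and 1 higher, where 6.43% of all were lower and 6.40% higher. LOX4, a lipoxygenase of the first step, had 7.96, 5.34 and 6.75 CPM in bzip17 at 38 °C and 16.97, 10.9 and 16.6 CPM at 22 °C (log2 change -1.15, SE 0.24, adjusted p = 0.00470). In WT it had 7.33, 7.90 and 6.64 CPM at 38 °C, against 14.4, 11.1 and 17.7 CPM at 22 °C (log2 change -0.98, SE 0.24, adjusted p = 0.0120), just under the fold limit. AOC3, an allene oxide cyclase, fell in both genotypes, with -1.18 (SE 0.38, adjusted p = 0.0376) in bzip17 and -1.34 (SE 0.38, adjusted p = 0.0227) in WT. AOC1, a near relative of it, rose in WT (log2 change 2.11, SE 0.45, adjusted p = 0.00594) and gave 0.83 (SE 0.43, adjusted p = 0.170) in bzip17. Reads of these neighbouring paralogs may be split between them. AOS, the enzyme before the cyclases, fell in bzip17 within the fold limit (log2 change -0.71, SE 0.22, adjusted p = 0.0302) and gave -0.61 (SE 0.22, adjusted p = 0.0560) in WT. The summed synthesis genes were lowest in replicate 2 among bzip17 libraries at 22 °C (1056, 490.4 and 1203 CPM), like the JAZ genes.

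Among 9 tested genes of jasmonate turnover and transport, heat called 4 lower in bzip17, where 6.44% of all tested genes were, and 3 lower and 1 higher in WT, where 6.43 and 6.40% of all were. JMT, which methylates jasmonate, fell in bzip17 (log2 change -1.27, SE 0.42, adjusted p = 0.0415) and in WT (log2 change -1.40, SE 0.42, adjusted p = 0.0302). ST2A, which sulfates hydroxylated jasmonate, fell in bzip17 (log2 change -2.19, SE 0.61, adjusted p = 0.0207) and in WT (log2 change -2.11, SE 0.62, adjusted p = 0.0278). AT2G38240, annotated as a 2-oxoglutarate and Fe(II)-dependent oxygenase, had 0, 0 and 8 counts in bzip17 at 38 °C, against 73, 100 and 300 counts in bzip17 at 22 °C. It had 8, 23 and 27 counts in WT at 38 °C and 162, 124 and 37 in WT at 22 °C. It fell in both, with -5.90 (SE 1.07, adjusted p = 0.00217) in bzip17 and -2.80 (SE 0.89, adjusted p = 0.0368) in WT. The fitted change in bzip17 depends on the prior count, since 2 libraries were at 0. ABCG16, a transporter of jasmonate, rose in WT (log2 change 1.46, SE 0.24, adjusted p = 0.00131) and rose within the fold limit in bzip17 (log2 change 0.75, SE 0.23, adjusted p = 0.0301). The fourth gene called lower in bzip17, CYP94C1, which oxidizes the active hormone, is named here after its value was seen (log2 change -2.26, SE 0.74, adjusted p = 0.0418). CYP94B3, which hydroxylates it, had 0 to 25 counts per library and was not tested.

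Among 5 tested genes of jasmonate output, VSP2, a vegetative storage protein, rose in both genotypes. It had 1893, 1971 and 1444 CPM in bzip17 at 38 °C, against 1104, 646 and 675 CPM at 22 °C (log2 change 1.13, SE 0.26, adjusted p = 0.00795), and 1929, 1496 and 2107 CPM in WT at 38 °C, against 685, 1009 and 947 CPM at 22 °C (log2 change 1.07, SE 0.26, adjusted p = 0.0116). VSP1, its neighbour and close relative, went the other way, with -0.87 (SE 0.26, adjusted p = 0.0286) in bzip17, within the fold limit, and -1.02 (SE 0.26, adjusted p = 0.0152) in WT. Counts of this pair may also be shared between them. TAT3, an aminotransferase induced by jasmonate, fell in bzip17 (log2 change -2.13, SE 0.56, adjusted p = 0.0152) and gave -1.16 (SE 0.54, adjusted p = 0.130) in WT.

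Genes of early touch and wound responses, which can change while tissue is collected, were also examined. Heat called 2 of 7 lower in bzip17 and 1 of 7 lower in WT, where 6.44% and 6.43% of all tested genes were. TCH3, a calmodulin-like protein, had 0.630, 1.69 and 1.33 CPM in bzip17 at 38 °C and 10.7, 18.6 and 35.1 CPM at 22 °C (log2 change -4.15, SE 0.72, adjusted p = 0.00159), and fell in WT (log2 change -2.17, SE 0.65, adjusted p = 0.0293). WRKY33, a wound-induced factor, fell in bzip17 (log2 change -1.64, SE 0.47, adjusted p = 0.0224) and gave -0.99 (SE 0.46, adjusted p = 0.130) in WT. Their part in the JAZ values was not tested. The green tissue gene CAB1, a chlorophyll-binding protein, fell with heat in bzip17 (log2 change -1.10, SE 0.20, adjusted p = 0.00233), while LHCB2.1, another such protein, gave 0.35 (SE 0.13, adjusted p = 0.0658) in bzip17 and rose in WT within the fold limit (log2 change 0.74, SE 0.13, adjusted p = 0.00209). The pollen genes CPK34 and VGD1 fell with heat in WT, with log2 changes of -2.73 (SE 0.61, adjusted p = 0.00768) and -1.26 (SE 0.41, adjusted p = 0.0420).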

How the data were processed

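The authors extracted total RNA from buds, sequenced it on an Illumina instrument and cleaned the reads with cutadapt. HISAT2 placed them on TAIR10, and StringTie and ballgown estimated expression, with no version stated. The deposited table gives a raw count and an FPKM value per gene and library, made by the authors. No source used here says how counts were made from reads or whether the libraries kept strand. An FPKM listed as 0.0001 stands for 0.

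The filter kept genes that reached an FPKM of 1 in 3 or more libraries. After TMM scaling, all 12 libraries entered 1 edgeR quasi-likelihood fit with a mean for each of the 4 groups, from which 5 comparisons were taken, each adjusted by Benjamini-Hochberg over 20715 genes. A call needs an adjusted p under 0.05 and a change over 2-fold, and an interaction only the adjusted p. SE was taken as the size of the log2 change over the root of its F statistic. CPM uses TMM-scaled library sizes, and FPKM was used for the filter, for the order and shares of genes, and in the limma alternative. P-values measure the spread between pools of plants. The labels tie replicate numbers to no batch. Among bzip17 libraries, those sharing a number deviated together across temperatures (correlations of 0.132, 0.167 and 0.200, all over 0.1), so a block fitted to those 6 libraries is given where it changed a call. Unlike numbers gave at most 0.061 there, but up to 0.335 between genotypes at 22 °C. Whether a shared batch underlies these values was not tested. No 2 replicates agreed within counting error (chi-square per degree of freedom at least 78.2).

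The members and gene lists were chosen with earlier results of these data known. Named besides the JAZ genes are up to 4 called members per list by smallest adjusted p, and the pathway genes COI1, NINJA, TPL, MYC2, MYB21, AOS, CYP94B3, VSP2 and AT3G22275. JAZ11, TIFY8, HD1 and MYC3 are named after their values were seen. Lists covered other TIFY genes, the receptor and its ligase, corepressors, JAZ-bound factors, jasmonate synthesis, turnover and transport, output, touch and wound genes, and markers of floral organs, tapetum, late pollen, green tissue and seed. Symbols and promoters come from RefSeq for TAIR10.1, in which 26710 genes compared had the same chromosome as in the table and 12927 shared a start or end. Gene positions are those of the table. Alternatives were DESeq2, other scalings and filters, limma on log2(FPKM + 1), a replicate block, and leaving out libraries. The fit was also run on simulated counts with planted changes, drawn with the spread that the fit itself had estimated. Some planted changes were exactly 2-fold, which is the limit of a call, so no recovery is claimed for changes near 2-fold. The planted changes were placed only in genes of higher expression than JAZ7 and JAZ8, and the simulated libraries were independent. Genes as low as these, and deviations shared by replicate number, were not covered. Fits were run in R 4.3.3 with edgeR 4.0.16, DESeq2 1.42.0 and limma 3.58.1, and figures drawn with Python 3.11.15, pandas 2.3.3 and matplotlib 3.10.9.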

Additional observations from a re-analysis of the deposited data

How the results depend on the processing

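For heat in bzip17, 6.44% of all tested genes were called lower, and 2 of the 10 JAZ genes were. None was called with counts scaled to library totals or with limma on log2(FPKM + 1) (0 in each). The count was 1 with the 4 libraries rich in ribosomal RNA left out, where JAZ9 kept its call, and with the replicate block among the bzip17 libraries, an alternative chosen after seeing the data. Leaving out 1 library gave 1 to 3 JAZ calls in bzip17 and 0 to 0 in each other comparison. At an unadjusted p under 0.05, 1 JAZ gene was called between genotypes at 38 °C and 1 for the interaction. Of 910 values of single JAZ genes under alternatives, 896 stayed on their side of the threshold, 11 lost it, 3 gained it and 0 turned while called, and 53 changed sign while called in neither.

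Counts over all genes moved too. Scaling to library totals shifted the median log2 change of all genes to 0.41 for heat in WT, 0.34 for the genotypes at 22 °C and -0.31 for the interaction, against 0.02, 0.02 and -0.05 with TMM. Called genes for heat in WT were 507 without the libraries rich in ribosomal RNA (2658 in the report), with 2014 to 2570 leaving out 1 library. For heat in bzip17 they were 1300 with library totals and 1593 with limma, with 2068 to 2605 leaving out 1 library. For the genotypes at 22 °C they were 68 with DESeq2, 11 with library totals, 4 with only the compared groups, 758 at an unadjusted p, 7 with limma, 1 without those 4 libraries and 2 to 25 leaving out 1. At 38 °C they were 37 with DESeq2, 7 with library totals, 6 with the replicate block, 239 at an unadjusted p, 6 with limma, 0 without those 4 libraries and 2 to 7 leaving out 1. For the interaction they were 6 with DESeq2, 3 with library totals, 895 at an unadjusted p, 1 with limma, 1 without those 4 libraries and 0 to 3 leaving out 1. The replicate block over all 12 libraries changed no JAZ call past the fold limit.

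Depth limits JAZ7 and JAZ8 most, which had 36 to 184 and 0 to 104 counts per library.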

Other observations

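Among genes outside the family, the pattern over the 12 libraries nearest to the mean of the 10 JAZ genes was that of RAB28, AT5G63410 (a leucine-rich repeat kinase), AT5G55400 (an actin-binding calponin homology protein), AT5G62300 (a ribosomal protein S10p/S20e) and NdhL, with root mean square differences of 0.19, 0.19, 0.21, 0.21 and 0.22 in centred log2 CPM, where the median of all genes was 0.54. The 10 JAZ genes themselves lay at a median of 0.36 from their mean, and only JAZ10 (0.19) and JAZ6 (0.21) were as near to it as these genes. The 0 count of JAZ8 in replicate 2 of WT at 22 °C weighs on that mean. With JAZ8 left out, a choice made after seeing the data, the 5 nearest were HIR1, HSL1, AT5G63410, AT3G54400 and C4H, and 1 gene was shared by both sets.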
